A study of Solanum tuberosum with 5 samples.

Results

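The comparison described here set potato plantlets (Solanum tuberosum, genotype labelled E26) that had spent 5 days in short days (SD) against plantlets kept in long days (LD) for the same 5 days. Their libraries are called S5 and L5 below. Both groups had first grown in long days for 3 weeks, and each was profiled as 1 tag library of polyadenylated RNA from plantlets. The series holds 3 other libraries, taken before the transfer (L0) and after 2 days in each photoperiod (L2 in long days and S2 in short days). A tag is a stretch of 21 bases that begins at an NlaIII site and stands for the transcript it was cut from. Members were the tags listed in both day 5 libraries with a value of at least 10 TPM (the authors' header, tags per 1000000 tags of the library) in at least 1 of them. They numbered 7194 of the 27553 different tags of the series. The rule used abundance and presence, not the difference between photoperiods, but a tag could reach the floor in 1 library alone.

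Potato forms tubers on underground stems, and in many genotypes short days favour this step. The day length is read in the leaves through phytochrome and the circadian clock, and a mobile protein of the FLOWERING LOCUS T family carries the signal from the leaf to the stolon. Once a tuber starts, storage proteins such as patatin and the enzymes of starch synthesis become abundant in it. The files name no gene for any tag, and no potato transcript sequence was used here, so none of these genes could be looked up and the plantlet label could not be checked against marker genes. Tags are therefore described by their abundance, their rank and their values. The labels do not say how many plantlets or which organs went into a library, and in whole plantlets fewer cells of a type and less RNA per cell cannot be told apart.

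The depth of both libraries was close, at 3492458 tags in S5 and 3688118 in L5. A value of 10 TPM rested on 34.9 tags in the first and 36.9 in the second. The listed tags made up 59.7% and 58.9% of these totals. The members held 79.5% of the listed sum in S5 and 78.3% in L5. Of the members, 5857 reached 10 TPM in both libraries, 411 in S5 only and 926 in L5 only. Another 5888 tags were listed in both libraries but stayed below 10 TPM in each.

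At day 5 most tags stood close to the same level in both photoperiods. The log2 ratio, log2((S5 + 1)/(L5 + 1)), had a median of -0.08 over the 7194 tags, with quartiles of -0.46 and 0.27 and extremes of -3.91 and 3.68. Less than 1.25-fold separated the libraries in 3290 tags, or 45.7%. A further 1796 differed by 1.25 to 1.5-fold and 1353 by 1.5 to 2-fold. At 2 to 4-fold there were 690 tags, at 4 to 8-fold 51, and at 8-fold or more 14.

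The smallest differences were even in direction, and those of 1.5 to 8-fold leaned to the lower side. Under 1.25-fold, 1654 tags were higher in SD and 1635 lower. At 1.25 to 1.5-fold the split was 838 and 958, at 1.5 to 2-fold 506 and 847, at 2 to 4-fold 175 and 515, and at 4 to 8-fold 16 and 35. In the outermost class of 8-fold or more, 6 tags were higher and 8 lower. Tags were called from a log2 ratio of 1 upward or -1 downward where a ratio of 1 lay outside the 95% Clopper-Pearson interval of the tag counts, a condition that removed no tag. By this rule 197 tags were higher in SD, 2.74% of those compared, and 558 were lower, 7.76%. In either direction the calls were 755, or 10.5%. At 4-fold or more, 22 tags were higher (0.306%) and 43 lower (0.598%). Close to the threshold, 45 tags lay just inside it on the higher side (log2 ratio from 1 to 1.1) and 76 just outside (0.9 to 1). On the lower side 123 lay just inside and 150 just outside. With 1 library per group these counts describe a pair of libraries. There is no replicate check and no p-value.

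**Figure D1:**
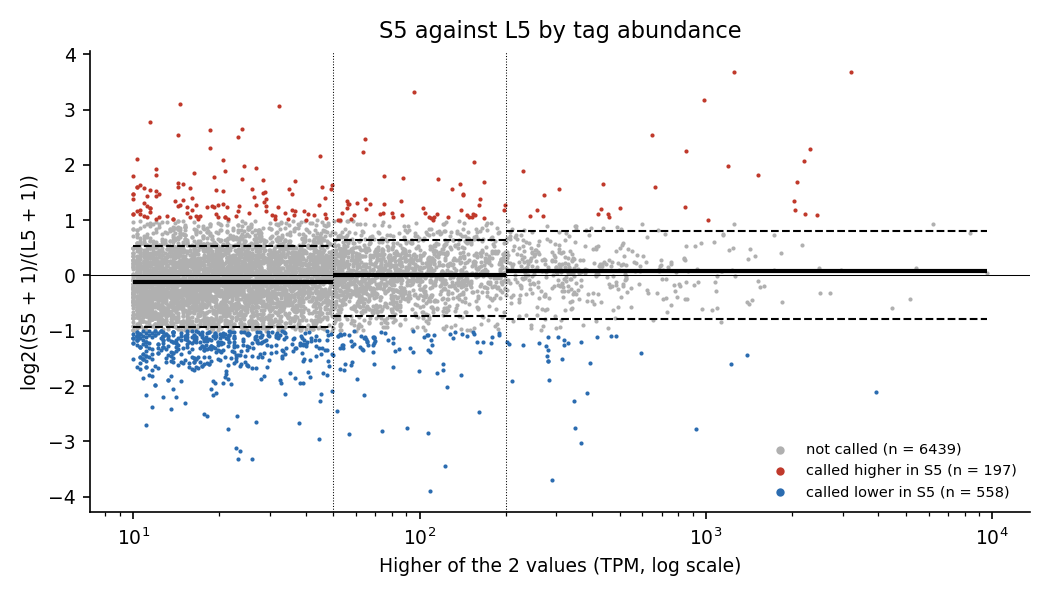
Log2 ratio of S5 over L5 (y axis) against the higher of both TPM values (x axis, log scale), 1 point per tag; thick lines give the median and dashed lines the 10th and 90th percentiles of each abundance band. The medians step from -0.12 through 0.01 to 0.09, and the dashed lines lie at -0.93 and 0.53, -0.74 and 0.65, and -0.79 and 0.80.

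The balance of directions went with abundance. The tags were divided into 3 bands by the higher of both values. The band of 10 to 50 TPM held 5148 tags, that of 50 to 200 TPM 1598 tags, and that of 200 TPM or more 448 tags. The median log2 ratio was -0.12 in the lowest band, 0.01 in the middle band and 0.09 in the highest. The share of tags with a ratio above 0 was 41.3%, 50.9% and 57.4% in the same order.

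The calls followed the same order. Among tags at 10 to 50 TPM, 117 were called higher and 439 lower, 3.75 lower for each higher. At 50 to 200 TPM the calls were 51 higher and 87 lower, or 1.71 to 1. At 200 TPM or more they were nearly even, with 29 higher and 32 lower. Calls of 4-fold or more were 11 higher and 26 lower in the lowest band, 4 and 10 in the middle band, and 7 and 7 in the highest. As shares of the bands, differences of 4 to 8-fold made up 0.602%, 0.688% and 2.01%. Those of 8-fold or more made up 0.117%, 0.188% and 1.12%, so large differences were most frequent in the highest band. The share of tags called in either direction was 10.8%, 8.64% and 13.6% from the lowest band to the highest. Tags called lower made up 8.53%, 5.44% and 7.14% of the bands in that order, and tags called higher 2.27%, 3.19% and 6.47%. Between the lowest and the highest band it was thus mainly the share of higher calls that differed. The lowest band, with 71.6% of all members, supplied 439 of the 558 lower calls. In this band 1332 of 5148 tags were below 10 TPM in the lower library and so passed the floor through the other alone. Over all members, 926 passed through L5 alone and 411 through S5 alone. How many of the calls were on such tags was not counted. A 2-fold call on a tag near the floor needs a lower value under 10 TPM by construction. The 439 lower calls of the lowest band summed to 3409 TPM in S5, and its 117 higher calls to 908 TPM in L5. Both sums are below 10 TPM per tag, so the calls of this band included tags that passed the floor through 1 library alone.

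**Figure D2:**
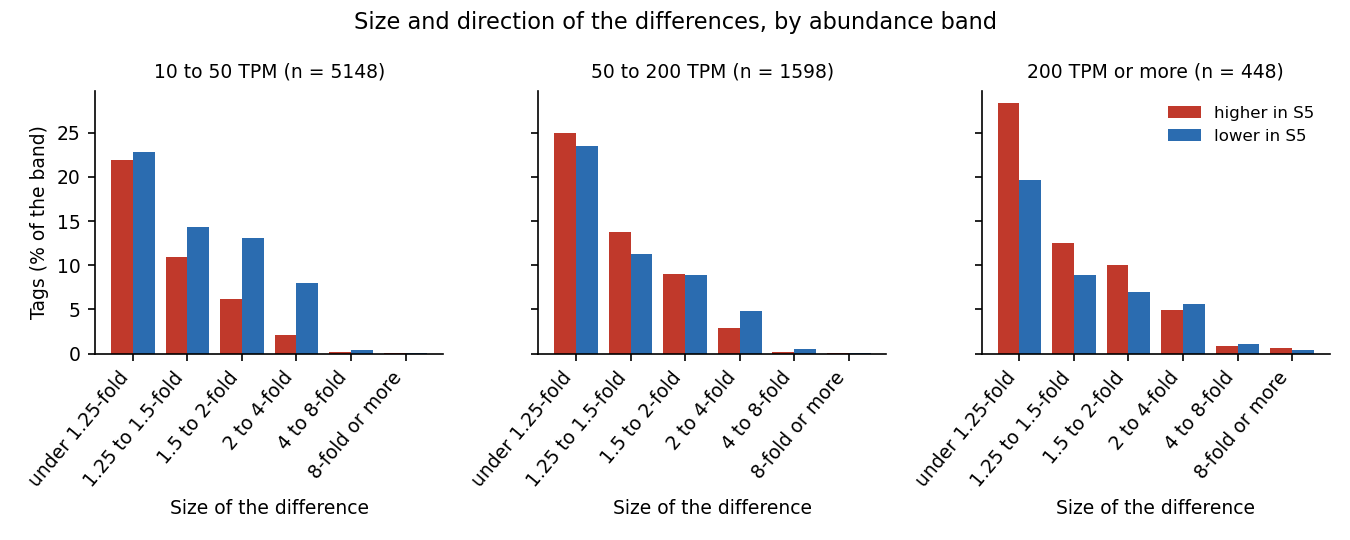
Share of the tags of each abundance band (y axis, percent) by size of the difference between S5 and L5 on the scale with the pseudocount (x axis), with tags higher in SD in red and lower in SD in blue. In the band of 10 to 50 TPM the blue bars exceed the red ones in every size class, while at 200 TPM or more the red bars are taller up to 2-fold.

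The interquartile spread of the ratios hardly changed with abundance, although counting error did. The spread was taken as the interquartile range divided by 1.349, which equals the SD for a normal distribution. It was 0.56 log2 units at 10 to 50 TPM, 0.50 at 50 to 200 TPM and 0.51 at 200 TPM or more. Counting error alone gives a median SD of 0.27, 0.13 and 0.06 in these bands. The observed spread was thus 2.11, 3.91 and 8.22 times the counting error. The counting interval of the ratio excluded 1 for 36.8%, 62.6% and 84.4% of the tags. In the top band it lay above 1 for 220 tags and below 1 for 158. The tails were widest in that band. The 5th and 95th percentiles of the log2 ratio were -1.20 and 0.77, -1.04 and 0.84, and -1.23 and 1.11 from the lowest band to the highest. With 1 library per group, photoperiod and library cannot be told apart in this spread.

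The step between the band medians depended on the library used to measure abundance. When the tags were divided by their value in L2, a library outside the pair, the medians were -0.10, -0.05 and -0.02. With S2 they were -0.13, -0.02 and -0.02, and with L0 they were -0.10, -0.07 and 0.01. The lowest of these bands kept the lowest median in all 3 cases, but the span between bands was narrower and only 1 of the medians was above 0. Tags below 10 TPM in these outside libraries had a median of -0.03 in each. The excess of lower calls at 10 to 50 TPM stood under these divisions as well, with 75 higher and 302 lower by L2, 61 and 258 by S2, and 60 and 252 by L0. At 50 to 200 TPM the lower calls led too, with 29 higher and 91 lower, 31 and 71, and 31 and 93 in the same order. At 200 TPM or more the calls were 14 and 27, 20 and 21, and 24 and 23. At the floor itself, the 308 tags whose higher value was 9 to 10 TPM had a median of -0.13, and the 413 tags at 10 to 11 TPM had -0.20. Band medians differed in other pairs of libraries too, each taken over its own tags. They were -0.09, 0.10 and 0.26 for S5 over S2, and -0.05, 0.00 and 0.06 for S2 over L2. L5 over L2 had 0.06, 0.04 and 0.18, and L2 over L0 had 0.12, 0.08 and -0.09. A rise with abundance was thus not particular to the day 5 pair.

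The overall balance moved with the scaling of the libraries, and the step between bands did not. The deposited values are scaled to the total of each library. TMM scaling, a trimmed mean of ratios, computed on the members raised S5 relative to L5 by 5.0% and gave 245 higher and 488 lower calls. The median of the ratios of S5 to L5 over the members raised it by 5.7%, with 255 and 479. An upper-quartile factor gave 234 and 500, and scaling to the listed tags, which lowered S5 by 1.3%, gave 190 and 579. Factors taken from the tags listed in all 5 libraries were larger. TMM over those tags raised S5 by 9.0% and gave 284 higher and 417 lower. The median of ratios over them was another measure, as S5 and L5 were each set against the geometric mean of all 5 libraries. Values of L0, L2 and S2 thus entered it. It raised S5 by 14.9% and gave 360 and 351, so that no direction can be given for the calls as a whole. The distance between the medians of the highest and lowest bands stayed between 0.21 and 0.22 log2 units under all 6 of these scalings, as a common factor shifts all bands almost equally.

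The shift that evens the calls out differed between bands. Raising S5 by 5.0% was enough at 200 TPM or more, with 32 tags on each side, and 6.1% at 50 to 200 TPM, with 69 on each side. At 10 to 50 TPM it took 17.7%, with 254 higher and 251 lower. Under the largest of the factors above, the calls were 229 higher and 278 lower at 10 to 50 TPM, against 86 and 47 at 50 to 200 TPM and 45 and 26 at 200 TPM or more. The lower side thus led in the lowest band under every scaling tried, whereas in both other bands the leading side changed with it. Members stayed as set by the deposited values under each scaling, and more of them passed the floor through L5 alone than through S5 alone.

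**Figure D3:**
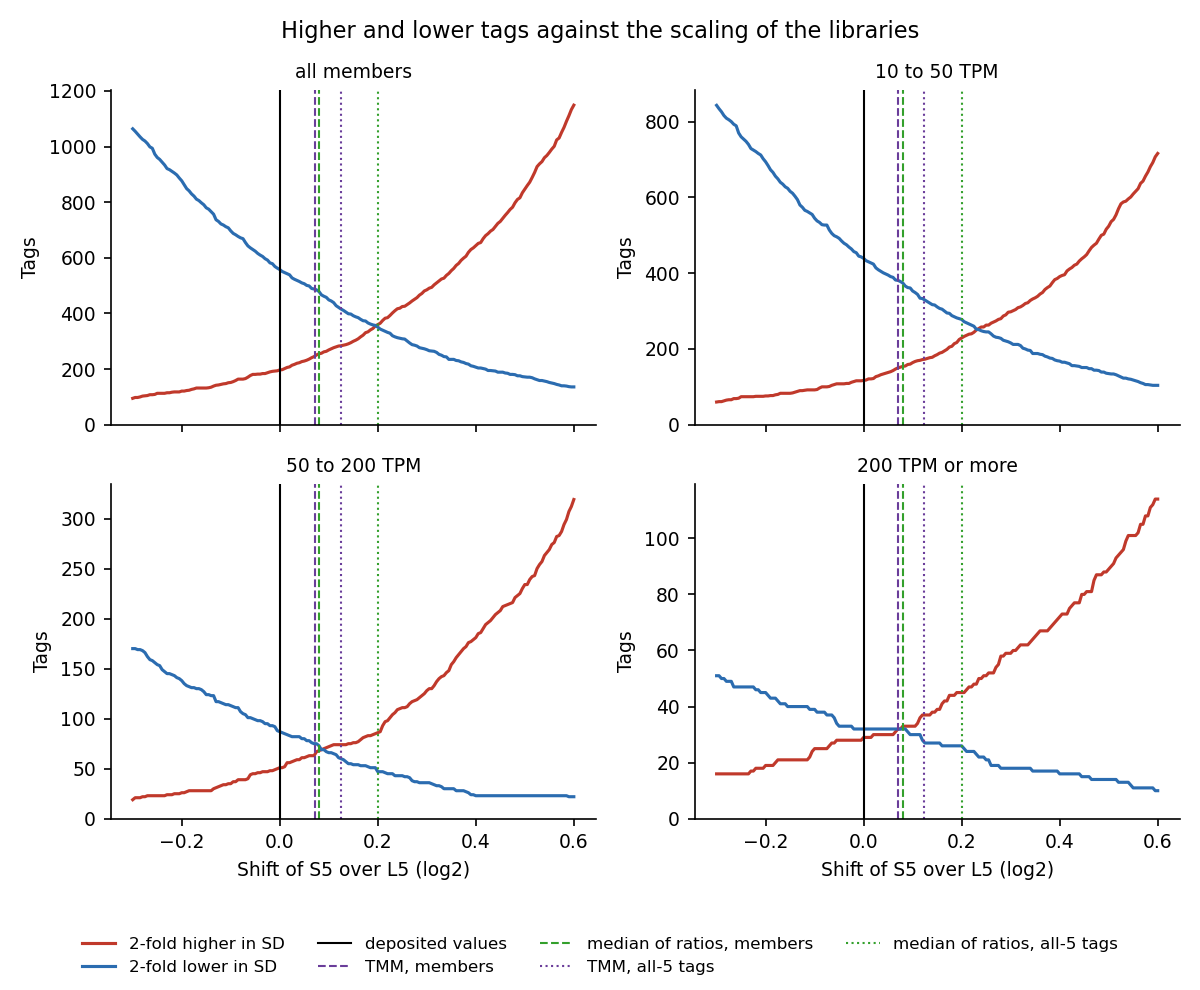
Number of tags at least 2-fold higher (red) or lower (blue) in S5 (y axis) as the S5 values are shifted against L5 (x axis, log2), for all members and each band; vertical lines mark the deposited scaling and 4 estimated factors. The curves cross at a shift of 0.200 for all members, 0.235 at 10 to 50 TPM, 0.085 at 50 to 200 TPM and 0.070 at 200 TPM or more.

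Summed in TPM rather than counted in tags, the balance of the calls was the opposite. The 197 tags called higher went from a summed 12924 TPM in L5 to 39704 in S5, a gain of 26779 TPM. The 558 tags called lower fell by 22188 TPM, from 33857 to 11668. The called tags higher in SD thus made up 2.80% of the members' sum in L5 and 8.37% in S5. The gain was concentrated, as the 29 called tags at 200 TPM or more supplied 21939 TPM of it and the 10 largest 56.1%. The 439 lower tags at 10 to 50 TPM together fell by 5938 TPM, while the 32 lower tags at 200 TPM or more fell by 11387 TPM. Over all members the net change was 13195 TPM upward, and without the 10 members that changed most in TPM it was 3436. The gain of the called tags exceeded their loss under every scaling tried, by the least when scaled to the listed tags. There, tags called higher gained 25773 TPM and those called lower fell by 22958 TPM. The lead of the gain rested on few tags, however. In the deposited values the 5 largest gains of called tags came to 9212 TPM. The largest loss was that of a tag at 3937 TPM in L5 and 910 in S5. With these tags left out of both sides, the loss of the called tags exceeded their gain. By band the net of the deposited values was -8283 TPM at 10 to 50 TPM, 897 at 50 to 200 TPM and 20581 at 200 TPM or more.

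The most abundant tags showed changes of less than 2-fold that were large in TPM. The tag with the highest mean of both libraries stood at 9586 TPM in S5 and 9349 in L5, a ratio of 1.03 (95% counting interval 1.01 to 1.04). It was at 3096 in L0, 10796 in L2 and 1103 in S2, so the near equality at day 5 did not hold in the day 2 pair. The tags ranked 2 and 4 by abundance differ from each other at 2 of 21 bases, and both were higher in SD. Rank 2 was at 8369 against 4914 TPM (1.70-fold, 1.67 to 1.74) and rank 4 at 6186 against 3263 (1.90-fold, 1.85 to 1.94). Their earlier values were also alike, with 1684 and 1319 TPM in L0, 2858 and 1633 in L2, and 1836 and 1157 in S2. Both were thus above their day 0 level in L5 and higher again in S5. Rank 3 was at 5430 against 4926 TPM (1.10-fold, 1.08 to 1.13), with 1782 in L0, 4720 in L2 and no entry in S2. Rank 5 was lower in SD, at 3843 against 5143 TPM (1.34-fold lower, 1.31 to 1.37), though in the day 2 pair it was higher, at 2525 against 1277, with 1207 in L0.

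Other abundant tags were chosen after their values were seen because their change in TPM was among the 10 largest. The largest loss was in a tag at 3937 TPM in L5 and 910 in S5, 4.33-fold lower (4.16 to 4.50). It stood at 121 TPM in L0, 1521 in L2 and 651 in S2, so that SD was below LD on both days. A tag at 2303 TPM in S5 and 473 in L5 was 4.87-fold higher (4.63 to 5.14), with 337 in L0, 224 in L2 and 165 in S2. One at 2198 against 525 TPM was 4.19-fold higher (3.98 to 4.40), with 786 and 340 in L0 and L2 and no entry in S2. Another was at 2084 against 643 TPM, 3.24-fold higher (3.09 to 3.40), and in the day 2 pair it was at 1089 against 568, with 305 in L0. S5 was thus the highest of the libraries that listed the tag for each of these 3 tags. A tag at 2445 against 1139 TPM was 2.15-fold higher (2.07 to 2.23), with 591 in L0, 803 in L2 and 531 in S2. One at 2943 against 4448 TPM was 1.51-fold lower (1.47 to 1.55), with 2889 in L0, 8764 in L2 and 5707 in S2, so both day 2 libraries exceeded both of day 5.

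The tags farthest apart within each band were named by rank, 2 per direction. At 200 TPM or more the largest ratio on the higher side was 3210 TPM in S5 against 249 in L5, 12.9-fold (12.1 to 13.8), with 435 in L0, 120 in S2 and no entry in L2. The next was at 1256 against 97.6 TPM, 12.9-fold (11.6 to 14.4), with 138 in L0, 51.9 in L2 and 30.2 in S2. In both cases S5 stood far above every other library that listed the tag. For the second the day 2 ratio was 0.582 (0.454 to 0.744), on the other side of 1. On the lower side the first was at 21.5 against 290 TPM, 13.5-fold lower (10.7 to 17.3), with 66.8 in L0, 132 in L2 and 179 in S2. The next was at 44.1 against 367 TPM, 8.32-fold lower (7.04 to 9.89). It was at 20.0 in L0, 439 in L2 and 96.9 in S2, so it was far above its starting level in both long-day libraries and less so in short days.

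At 50 to 200 TPM the first 2 tags on the higher side were alike in sequence and in pattern, differing at 2 of 21 bases. The first was at 95.9 TPM in S5 and 8.68 in L5 (11.1-fold, 7.68 to 16.4), and the second at 64.7 and 10.8 (5.96-fold, 4.25 to 8.57). The second was at 545 in L0, 17.2 in L2 and 201 in S2, and the first at 355, 20.9 and 293. L0 was the highest library for both, and SD stood above LD on each day. On the lower side, the first tag was at 6.30 against 108 TPM, 17.2-fold lower (11.2 to 27.8), and in the day 2 pair at 26.5 against 104, with 11.6 in L0. The second was at 10.3 against 123 TPM, 11.9-fold lower (8.48 to 17.2). It was at 92.7 in L0, 146 in L2 and 136 in S2, so only S5 was low.

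At 10 to 50 TPM the ratios rested on few tags in the lower library. The first on the higher side was at 14.6 TPM in S5, from 51 tags, and 0.810 in L5, from 3 tags, a ratio of 18.0 (5.81 to 89.9). It was at 8.46 in L0 and 2.54 in L2, and S2 did not list it. The second was at 32.4 against 2.98 TPM (10.9-fold, 5.84 to 22.3), with 43.1 in L0, 1.69 in L2 and 34.8 in S2. It was thus low in the later long-day libraries alone. The first on the lower side was at 1.43 TPM, from 5 tags, against 23.3, from 86 tags (16.3-fold lower, 6.72 to 51.4). It stood at 35.5 in L0 and 8.84 in S2, and L2 did not list it. The second was at 1.72 against 26.03 TPM (15.1-fold lower, 6.71 to 42.3), with 5.07 in L0, 18.3 in L2 and 5.42 in S2. These intervals were wide, and their lowest bound was 5.81.

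**Figure D4:**
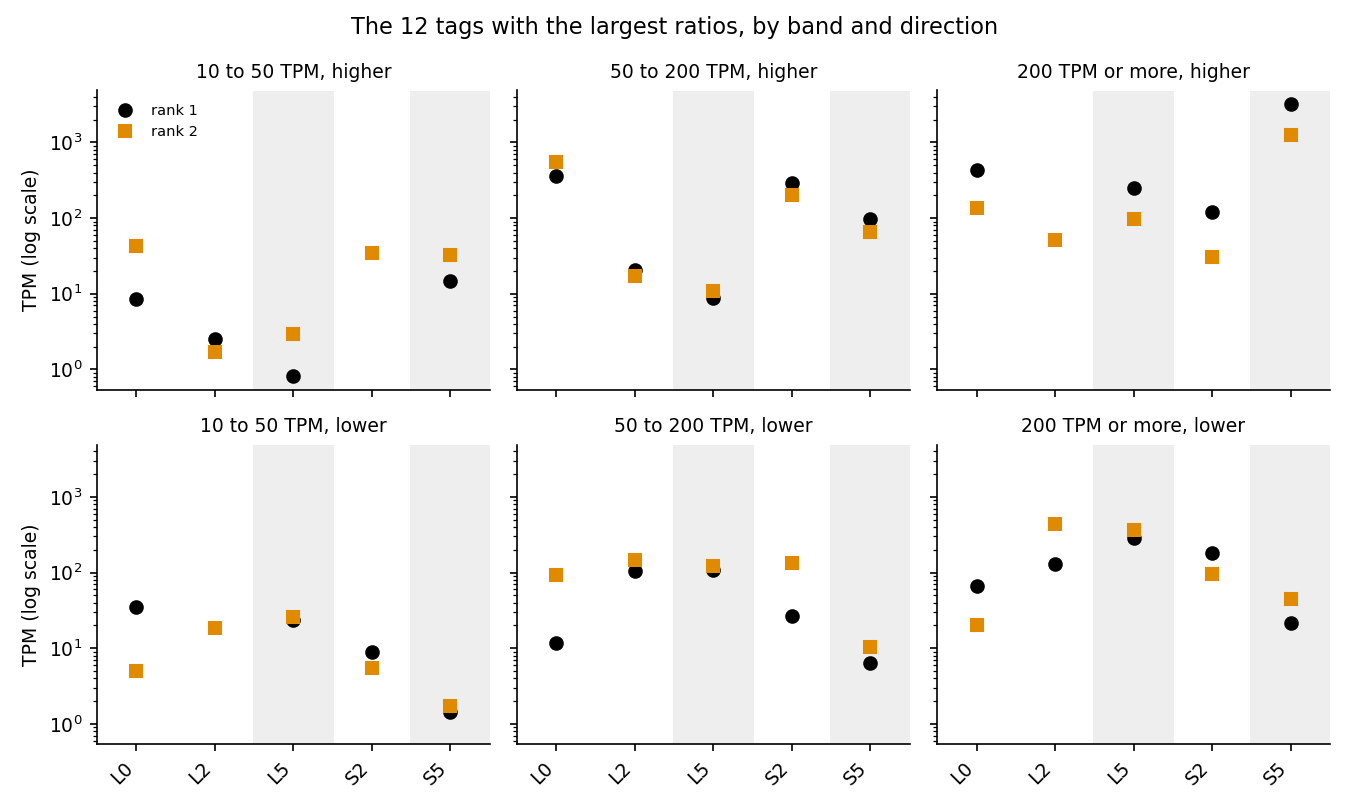
TPM (y axis, log scale) in each of the 5 libraries (x axis) of the 2 called tags with the largest ratio per abundance band and direction; the day 5 libraries are shaded, and a missing point is a library that did not list the tag. In the band of 50 to 200 TPM both tags on the higher side are highest in L0. At 200 TPM or more both are highest in S5 among the libraries that list them.

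The day 2 pair shares no library with the day 5 pair and was used to see where the same tags stood earlier. Both day 2 libraries listed 5612 of the 7194 tags, of which 4.53% were called higher and 19.8% lower in SD at day 2, with a median log2 ratio of -0.13. Tags at least 4-fold higher at day 5 stood apart from that level. Of the 17 listed at day 2, 10 were called higher and 0 lower, with a median log2 ratio of 1.43. Of the 37 listed that were at least 4-fold lower at day 5, 0 were called higher and 13 lower, with a median of -0.67.

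Smaller day 5 differences had less of a counterpart at day 2. Of the 136 tags that were 2 to 4-fold higher, 24 were called higher at day 2 and 18 lower, with a median of 0.36. Of the 415 that were 2 to 4-fold lower, 10 were higher and 66 lower, which is 15.9% lower against the 19.8% of all tags, with a median of -0.24. Over all calls, 34 of 153 tags higher at day 5 were also higher at day 2 (22.2%), and 79 of 452 lower at day 5 were also lower (17.5%). The lower share was thus not above that of all tags, and the higher share was. By abundance, 19 of 92, 9 of 37 and 6 of 24 of the higher tags were also higher at day 2, from the lowest band to the highest, where 4.91%, 3.49% and 3.64% of all tags of those bands were. Another 7, 7 and 4 of these higher tags were lower at day 2. Of the lower tags, 52 of 352, 19 of 74 and 8 of 26 were also lower, where 16.5%, 28.4% and 28.3% of all tags of those bands were.

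**Figure D5:**
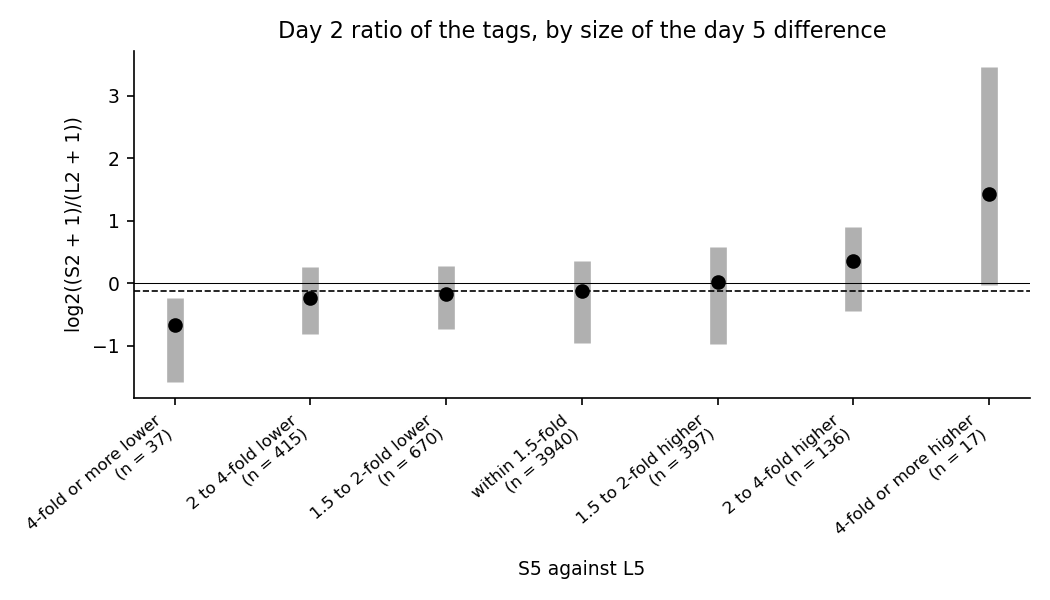
Log2 ratio of S2 over L2 (y axis) for tags grouped by their difference at day 5 (x axis); points are medians, grey bars run between the quartiles, and the dashed line is the median of all 5612 tags. The median rises from -0.67 in tags at least 4-fold lower at day 5 to 1.43 in those at least 4-fold higher, and the quartiles of the middle classes overlap widely.

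Levels in all 5 libraries were compared in the 5271 tags that every library listed. The 147 called higher had medians of 34.9 TPM in S5 and 12.7 in L5, with 20.3 in L0, 16.4 in L2 and 23.7 in S2. The 423 called lower had 8.30 TPM in S5 and 22.5 in L5, with 22.6, 23.7 and 19.7 in the other libraries. The order of S5 and L5 in both sets follows from the call. All 5271 tags had medians of 20.3 TPM in L0, 23.7 in L2 and 20.2 in S2, and the set called lower was near these levels in those libraries. In the 17 tags at least 4-fold higher, the median was 75.2 TPM in L0, 16.4 in L2 and 9.22 in L5, against 34.8 in S2 and 63.6 in S5. L0 was above both day 5 libraries in 8 of these 17 and below both in 2, where the shares over all 5271 tags were 32.0% and 52.2%. A wider gap between S5 and L5 puts more L0 values between them by construction, so those shares are no like background. L0 lay between them for 41.2% of these tags and 9.52% of those within 1.5-fold. In the 34 tags at least 4-fold lower, the medians were 20.0, 37.1 and 41.5 TPM in L0, L2 and L5, and 28.1 and 6.58 in S2 and S5.

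The mean base composition of the tags differed little between the sets, though the call shares varied with the G and C count. Of the 17 bases after the restriction site, G and C made up 34.1% on average in tags called higher, 37.8% in those called lower and 36.8% in all members. The median log2 ratio at day 5 went from 0.00 in the 1420 tags with up to 4 G or C to -0.14 in the 862 with 9 or 10, and -0.21 in the 128 with 11 or more. At day 2 the trend was the opposite, with medians of -0.29, 0.13 and 0.09 in the same classes. Tags called higher at day 5 were 3.17% of those with up to 4 G or C and 0.781% of those with 11 or more. Tags called lower were 6.34% and 11.7%. Across tags, Spearman's rho of the G and C count with the log2 ratio was -0.07 at day 5 (7194 tags) and 0.14 at day 2 (5612 tags). Tags of a library share its preparation and depth, so these values are descriptions, and the part of base composition in the calls was not tested.

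Few members were near copies of each other. In 35 pairs of members, holding 68 tags, the sequences differed at a single one of the 17 bases. The log2 ratios of 25 of these pairs had the same sign, and their difference had a median size of 0.29. No pairs of unlike tags were set beside them, so whether near copies went together was not tested. In 3 pairs both tags were called in the same direction, in 8 only 1 was called, and 0 were called in opposite directions. Which transcripts these pairs come from is not known here.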

How the data were processed

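Per the labels' protocols, polyadenylated RNA of plantlets was made into tag libraries by the Illumina Gene Expression kit. Aligner, reference, build and tag filters were not given in the sources used here. Deposited values, headed TPM per the file headers, are tags per 1000000 tags of the library (RPM), not divided by length. In each library 1 step, taken a whole number of times, gave at least 99.98% of the values to within 0.006 TPM, and the lowest value was 2 steps, so that the step gave the library total and the tags behind each value.

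Tags were joined on their sequence. Log2 ratios used a pseudocount of 1 TPM, which understates the change of low tags. Counting intervals are exact (Clopper-Pearson at 95% on the whole tags of both libraries, conditional on their sum, scipy 1.17.1) and cover counting error only, as amplified tags without identifiers are not separate molecules. Folds are ratios of the deposited values. Unlisted tags were not compared. Called values needed a log2 ratio of 1 or more in size and 10 TPM in the higher library. TMM and the other factors were computed in Python, and members and bands stayed as set by the deposited values. With 1 library per group no count model or test could be fitted. The procedure was run on simulated counts that held counting error and planted changes only. The spread of the real ratios was wider than counting error, so that run does not show how the calls behave under it.

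Named tags were the 2 with the largest ratio per band and direction and the 5 most abundant. Members and lists were chosen with earlier results of these data known.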

Additional observations from a re-analysis of the deposited data

Results flagged for a closer look

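Signal lay outside the comparison in tags that only 1 of the day 5 libraries listed. At 10 TPM or more there were 1463 such tags in S5 and 1575 in L5, or 18.9% and 18.8% of all tags at that level. They reached 4019 TPM in S5 and 6019 in L5, with 69 and 64 tags at 200 TPM or more. Their number and level were alike in both libraries. They carried no ratio and entered no count above.

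Calls at day 2 and day 5 went opposite ways in 28 tags, with 18 lower at day 2 and higher at day 5, and 10 the other way. The 18 were 11.8% of the 153 tags higher at day 5, below the 19.8% lower at day 2 among all tags, and the 10 were 2.21% of the 452 lower at day 5, below 4.53%. With 1 library behind each value, the contrast of the days was not tested.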

How the results depend on the processing

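Of 263 alternative values, 176 stayed within 1.5 times the count given above, or within the 95% binomial interval of a share, median or interquartile range, 81 moved further and 6 turned in sign. Part of the 176 could not move, so their number is no measure of stability. Bands above the floor keep their tags when it changes, and a common factor hardly alters an interquartile range. The intervals also take tags as independent, though tags of a library share its preparation. Values for the bands run from 10 to 50 TPM to 200 TPM or more. No paired analysis was possible because each group has 1 library, and no replicate could be left out. Leaving out the counting interval changed no count, and a pseudocount of 0.1 widened the interquartile range of the lowest band to 0.80. The percentage of calls that were higher in S5 was 33.4% with TMM, 34.7% with the median of ratios and 31.9% with the upper quartile. The median log2 ratio of all members and of the bands was -0.01, -0.05, 0.08 and 0.17 with TMM. It was 0.00, -0.04, 0.09 and 0.18 with the median of ratios, and -0.02, -0.06, 0.07 and 0.15 with the upper quartile. Rescaled to the listed tags, the median of all members was -0.10. The factors from tags in all 5 libraries were chosen after seeing the data. TMM from these tags gave a higher share of 40.5% and medians of 0.04, 0.00, 0.14 and 0.22. The median of ratios from them, taken against the geometric mean of all 5 libraries, gave 360 higher and 351 lower calls, a higher share of 50.6%. Its medians were 0.11, 0.07, 0.21 and 0.29, and its band calls 229 and 278, 86 and 47, and 45 higher.

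A pseudocount of 5 left 411 calls, 122 higher and 289 lower, a higher share of 29.7%. In the lowest band it left 50 and 182, with a median of -0.10 and an interquartile range of 0.61, against 0.62 over all members. With no floor there were 1265 calls, 338 higher and 927 lower, and the median was -0.10. A floor of 50 TPM left 199 calls, 80 higher and 119 lower, a higher share of 40.2%, a median of 0.03 and an interquartile range of 0.68, as fewer tags were compared. A fold of 1.5 gave 2028 calls, 684 higher and 1344 lower, or 33.7% higher, with 415 and 1052, 195 and 229, and 74 and 63 in the bands. With unlisted tags set to 0 there were 3793 calls, 1660 higher and 2133 lower, or 43.8% higher. The bands then had 1149 and 1561, 413 and 476, and 98 and 96, and the interquartile ranges were 1.20 over all and 1.20, 1.15 and 1.00 by band, since every unlisted tag at 10 TPM or more is called by construction. With bands from the mean of both values the lowest band had a median of -0.09 and an interquartile range of 0.71, and the highest had 19 lower calls. With bands from L2 the medians were -0.10, -0.05 and -0.02, with 75, 29 and 14 higher calls. Where no construction is named, the cause was not tested. The net change of 13195 TPM fell to 3436 without the 10 members that changed most, an alternative chosen after seeing the data. The median day 2 log2 ratios of tags called at day 5, 0.42 for higher and -0.27 for lower, stayed within their intervals with TMM, the median of ratios and both other pseudocounts, the only settings run for them. Depth limits the lowest band most, where the lower library held a median of 51.0 counted tags and under 20 for 249 of 5148 members.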
